A study of Mus musculus with 48 samples.

Results

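Ionotropic neurotransmitter receptors were followed across the nervous system of Tia1 knockout (KO) and wild type (WT) mice through 36 subunit genes. The list held 4 AMPA, 5 kainate, 6 NMDA and 1 delta type glutamate receptor subunits, 8 GABA-A, 4 glycine and 7 nicotinic acetylcholine receptor subunits, and the serotonin receptor subunit Htr3a. A member was measured by the probe set that carries its symbol in the platform annotation and, where there were several, by the one with the highest mean over the 36 nervous tissue arrays. Under this rule 35 of the 36 members had a probe set, of 17097 genes with a probe set of a single symbol. Grin1, the obligatory subunit of the NMDA receptor, had none under that symbol and was not analysed here.

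Cerebellum, midbrain, spinal cord and liver were profiled on 48 Affymetrix HT MG-430 PM arrays, 1 for each tissue of each mouse. The 4 groups of each tissue were KO mice at 6 months, WT mice at 6 months, KO mice at 3 months and WT mice at 3 months, with 3 mice each. All mice carried the genetic background C57Bl/6 by the labels, and neither genotype had a treatment. The Tia1 mutant allele lacks exon 4 and leaves a shortened transcript, the KO mice came from matings of homozygotes, and the sources differ on whether the WT mice were littermates or bought animals. Values were the log2 probe set intensities deposited by the authors after Robust Multichip Average (RMA), and a difference of 1 on this scale is a 2-fold change. Tia1 is an RNA binding protein of stress granules that regulates splicing and translation.

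An ionotropic receptor is an ion channel that opens when a transmitter binds it. Glutamate, acetylcholine and serotonin open channels for cations and excite the neuron, whereas GABA and glycine open channels for chloride and in the adult mostly inhibit it. Each channel is built from several subunits, and the choice of subunits sets where on the neuron it lies, how fast it closes and which drugs act on it, so a region of the nervous system is known by its set of subunits. Fast inhibition in the spinal cord and brainstem relies on glycine as well as GABA, and cerebellar granule cells carry GABA-A receptors outside the synapse that contain the delta subunit.

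The libraries were first set against their labels. Of 6 Tia1 probe sets, 1 was lower in KO than in WT tissue in all 6 nervous comparisons, by -1.79 to -2.35 on the log2 scale. Over the mean of these comparisons 4 of the other 5 were called higher in KO, by 0.47 to 0.74, and the fifth was at 0.23 (adjusted p = 0.2355). The mean level of the 6 Hox genes used as a spinal cord list had a median of 7.32 in spinal cord against 2.65 in cerebellum and 2.64 in midbrain. Granule cell genes had medians of 10.41 in cerebellum, 5.36 in midbrain and 4.94 in spinal cord. Genes of all neurons had medians of 10.63 in cerebellum, 10.94 in midbrain and 11.05 in spinal cord. Midbrain monoamine neuron genes had medians of 3.41 in cerebellum, 6.27 in midbrain and 3.64 in spinal cord. Thalamus and habenula genes had medians of 4.68 in cerebellum, 7.245 in midbrain and 5.82 in spinal cord. The part of thalamus or habenula tissue in the midbrain levels was not tested. Some libraries stood apart. The midbrain array of KO mouse 122970 at 6 months had 5.74 for Gabra6, a granule cell gene, against 2.42 to 3.40 on the other 11 midbrain arrays. The spinal cord arrays differed in genes of sensory ganglion neurons, with Scn11a between 2.54 and 8.24. Skeletal muscle genes averaged 2.98 to 10.32 on the spinal cord arrays (median 4.14), and were at 5.95 or above on 5 of them, all 3 of KO mice at 3 months, that of KO mouse 122970 at 6 months and that of WT mouse 3 at 3 months. Choroid plexus genes averaged 4.83 to 9.19 in cerebellum and 4.24 to 8.33 in midbrain, where KO mouse 122973 at 3 months alone was high. The 3 WT mice at 3 months stood apart from the other 9 mice in Gabra2 in every nervous tissue and in Nnt in all 4 tissues.

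Promoter sequence just upstream of the start site is shown for 4 members that span the patterns described below. Grin2c was highest in cerebellum, Gabra3 lowest there and Chrna3 highest in midbrain, while Glrb was under 2-fold apart in each pair of nervous tissues. The sequences are from RefSeq on GRCm38.p6, read 5′ to 3′ on the minus strand, at chr11:115267298-115267493, chrX:72656920-72657169, chr9:55026563-55026812 and chr3:80913661-80913910 in the same order, and hold no annotated transcript. Capitals mark matches on either strand to the GC box GGGCGG, the TATA box TATAAA, the CCAAT box or the cyclic AMP response element TGACGTCA.
Grin2c: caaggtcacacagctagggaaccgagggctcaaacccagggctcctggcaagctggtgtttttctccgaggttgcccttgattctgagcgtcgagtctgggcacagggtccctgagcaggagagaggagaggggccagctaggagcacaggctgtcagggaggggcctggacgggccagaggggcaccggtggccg
Gabra3: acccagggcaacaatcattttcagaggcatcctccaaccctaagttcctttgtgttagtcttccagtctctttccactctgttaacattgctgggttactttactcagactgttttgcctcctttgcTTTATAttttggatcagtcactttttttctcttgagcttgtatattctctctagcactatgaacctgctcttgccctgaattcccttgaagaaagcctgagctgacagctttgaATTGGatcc
Chrna3: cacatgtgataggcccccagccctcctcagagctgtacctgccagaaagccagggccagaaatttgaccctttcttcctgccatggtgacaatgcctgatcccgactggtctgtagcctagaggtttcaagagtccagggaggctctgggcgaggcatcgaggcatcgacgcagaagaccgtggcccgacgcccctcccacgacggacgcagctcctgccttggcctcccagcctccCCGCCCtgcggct
Glrb: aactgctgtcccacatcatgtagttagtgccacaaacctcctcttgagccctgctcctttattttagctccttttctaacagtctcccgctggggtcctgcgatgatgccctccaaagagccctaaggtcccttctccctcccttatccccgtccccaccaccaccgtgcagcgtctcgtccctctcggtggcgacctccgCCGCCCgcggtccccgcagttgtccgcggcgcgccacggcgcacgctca
GC content was 64.8% for Grin2c, 42.4% for Gabra3, 63.2% for Chrna3 and 62.4% for Glrb, against a median of 52.4% over all promoter windows. Chrna3 and Glrb held a GC box, Gabra3 held a TATA box and a CCAAT box, and the 196 bases of Grin2c held none of these letters. The whole window of Grin2c takes in 54 further bases inside an annotated gene, which are not printed, and holds a GC box. Among the 24 members with a window of 250 bases, 13 had a GC box (Grin2c among them), 3 a TATA box, 7 a CCAAT box and 0 a cyclic AMP response element. These members had 28 windows. Counted by window, 13 had the GC box, 4 the TATA box, 8 the CCAAT box and 0 the response element. Of all 32851 windows of this length, 32.7% had the GC box, 12.4% the TATA box, 33.8% the CCAAT box and 1.55% the response element. A match is a description of the letters and names no binding site.

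**Figure D1:**
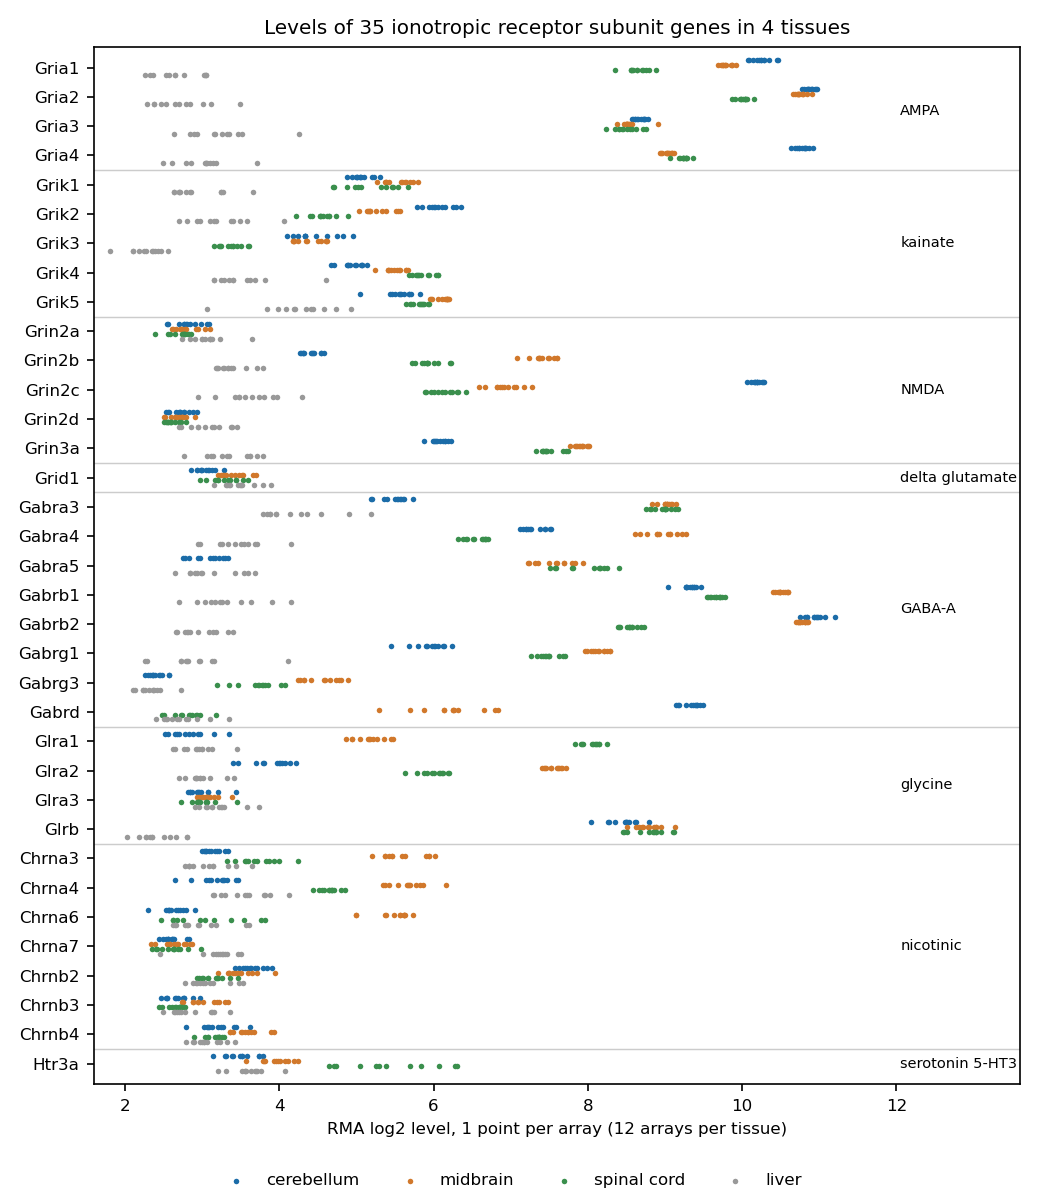
Level of each of the 35 members (log2 RMA intensity) in cerebellum, midbrain, spinal cord and liver, with members grouped by transmitter family. The points are arrays and 12 were measured in each tissue; Gabrd, Glra1 and Gabra5 lie far apart between the nervous tissues, and 8 members overlap liver in all of them.

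The members were compared between the tissues, each tissue as the mean of its 4 groups, with limma's moderated test, Benjamini-Hochberg adjustment over 45037 probe sets and a difference of at least 2-fold. In cerebellum 7 of the 35 members were higher than in spinal cord (20.0%, against 5.74% of all probe sets) and 10 were lower (28.6%, against 6.51%). In midbrain 10 members were higher than in spinal cord (28.6%, against 1.29% of all probe sets) and 2 were lower (5.71%, against 1.82%). In cerebellum 3 members were higher than in midbrain (8.57%, against 4.49%) and 13 were lower (37.1%, against 4.9%). The median difference of the members was -0.12 for cerebellum minus spinal cord, 0.40 for midbrain minus spinal cord and -0.39 for cerebellum minus midbrain, against 0.02, 0.02 and 0.01 over all probe sets. In bulk tissue, fewer cells that carry a subunit and less of its RNA per cell cannot be told apart. Where the lower tissue overlapped liver, its probe set may sit at its own background, and the fold is given as a bound, the higher tissue's mean over whichever was higher, the lower tissue's mean or the liver mean.

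In all, 21 members passed this test in at least 1 pair of tissues and 14 in none. Each of the 45 differences that passed had the same sign in KO and WT mice at both ages and in all 12 mice. They were picked on these same arrays for a difference of at least 2-fold, so the shared sign is a description and no further test. Near the 2-fold threshold, the smallest differences that passed were Grik3 (1.00) and Chrna4 (1.02) in midbrain minus spinal cord, and the largest that did not were Grik4 (-0.93) and Gria2 (0.87) in cerebellum minus spinal cord. Fits that left out the arrays standing apart were added after seeing the data. The 45 calls were the same without the 5 spinal cord arrays high in muscle genes. Gabrg3 also passed in that fit, as higher in midbrain than in spinal cord. Another fit left out the 10 cerebellum and midbrain arrays high in choroid plexus genes. It kept 3 of the 12 cerebellum arrays, all from mice at 3 months and 1 of them WT. The older mice had no cerebellum array in that fit. The 45 differences kept their sign in it and stayed at 2-fold or more. Without the WT mice at 3 months 3 were under 2-fold, Grik3 in cerebellum minus spinal cord (0.9966) and in midbrain minus spinal cord (0.89) and Chrna4 in midbrain minus spinal cord (0.94).

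**Figure D2:**
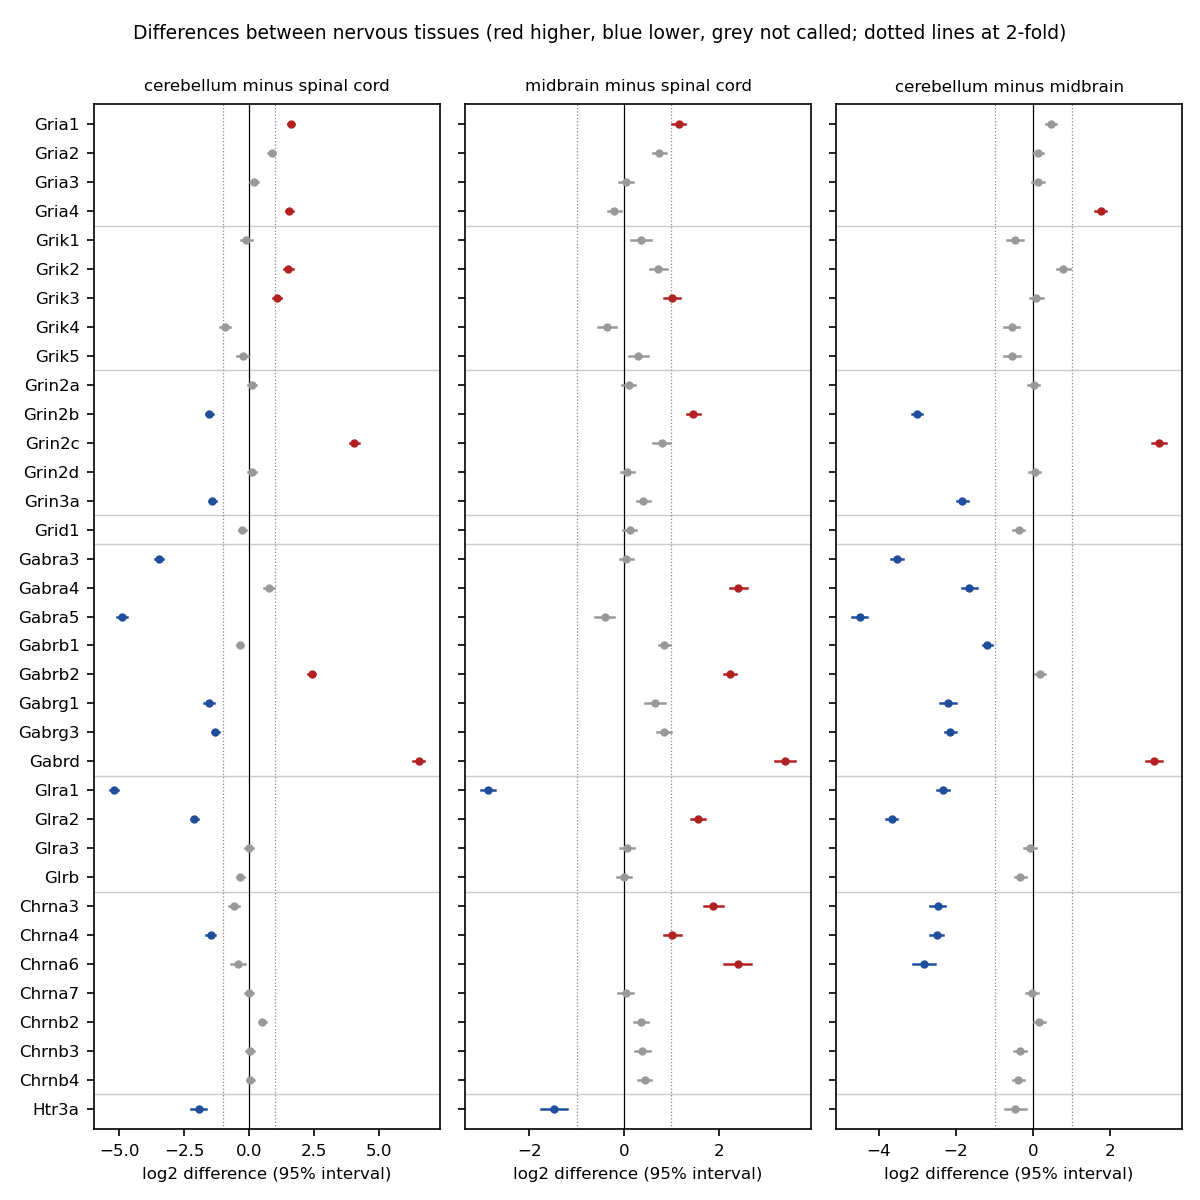
Difference between nervous tissues for each member (log2, with 95% interval), in 3 panels for cerebellum minus spinal cord, midbrain minus spinal cord and cerebellum minus midbrain. Red points passed the test as higher and blue points as lower, 17 in the first panel, 12 in the second and 16 in the third; the measured differences run from -5.22 (Glra1) to 6.54 (Gabrd), both with the lower tissue overlapping liver.

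The AMPA subunits, which form the main fast excitatory receptor, had 2 members that passed as higher in cerebellum than in spinal cord, Gria1 and Gria4. Gria1 had 10.08, 10.25 and 10.46 in cerebellum (lowest, median and highest of 12 arrays), 9.69, 9.78 and 9.92 in midbrain, 8.35, 8.64 and 8.88 in spinal cord and 2.25, 2.64 and 3.05 in liver. The ranges of the 4 tissues did not overlap. Gria1 was 3.05-fold higher in cerebellum than in spinal cord (log2 1.61 ± 0.07 SE, adjusted p = 3.466e-23) and 2.22-fold higher in midbrain than in spinal cord (log2 1.15, adjusted p = 7.749e-18).

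Gria4, a subunit known for receptors with fast kinetics, had 10.63, 10.79 and 10.92 in cerebellum, 8.94, 9.03 and 9.11 in midbrain, 9.07, 9.24 and 9.36 in spinal cord and 2.50, 3.05 and 3.71 in liver. Cerebellum stood above both other nervous tissues, whose ranges overlapped. The difference was 3.36-fold over midbrain (log2 1.75 ± 0.07 SE, adjusted p = 1.371e-23) and 2.91-fold over spinal cord (log2 1.54, adjusted p = 6.354e-22). Gria2, whose edited form keeps calcium out of the channel, had medians of 10.88 in cerebellum, 10.74 in midbrain and 10.02 in spinal cord and did not reach a 2-fold difference in any pair. Gria3 was at 8.67, 8.51 and 8.48 in the same tissues, and none of its differences passed an adjusted p of 0.05.

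Of the kainate subunits, Grik2 and Grik3 passed between the tissues by the probe sets followed. Grik2, a subunit that forms channels by itself, had 5.78, 6.04 and 6.36 in cerebellum, 5.04, 5.21 and 5.56 in midbrain, 4.22, 4.55 and 4.89 in spinal cord and 2.70, 3.17 and 4.07 in liver. The order was cerebellum, midbrain, spinal cord, with no overlap between the nervous tissues, and the 2.84-fold difference of cerebellum from spinal cord passed the test (log2 1.5 ± 0.09 SE, adjusted p = 3.026e-18). Grik3 had medians of 4.33 in cerebellum and 4.35 in midbrain, which overlapped, against 3.39 in spinal cord and 2.31 in liver. It was 2.11-fold higher in cerebellum (adjusted p = 1.261e-14) and 2.00-fold higher in midbrain (adjusted p = 3.951e-13) than in spinal cord. The midbrain difference of Grik3 was 0.97 to 0.99, under 2-fold, without KO mouse 122972 at 3 months, KO mouse 122972 or 122973 at 6 months, WT mouse 2 at 3 months or WT mouse 3 at 6 months. Grik4 and Grik5, which need another kainate subunit to form a channel, and Grik1 stayed under 2-fold in every pair by the probe sets followed. Grik4 ran the other way, with medians of 4.94 in cerebellum, 5.50 in midbrain and 5.83 in spinal cord. Grik1 was at 5.05, 5.58 and 5.18 in the same order, and Grik5 at 5.57, 6.15 and 5.83.

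The NMDA receptor subunits set the kinetics of a calcium permeable glutamate receptor. Of the glutamate receptor families, theirs alone had members that passed as higher and as lower in cerebellum, by the probe sets followed. Grin2c, known as the subunit of mature cerebellar granule cells, had 10.06, 10.19 and 10.29 in cerebellum, 6.58, 6.90 and 7.27 in midbrain, 5.89, 6.13 and 6.42 in spinal cord and 2.94, 3.60 and 4.29 in liver. Cerebellum lay above all other arrays, and midbrain lay above spinal cord. The level was 16.6-fold higher in cerebellum than in spinal cord (log2 4.06 ± 0.09 SE, adjusted p = 8.291e-32) and 9.61-fold higher than in midbrain (log2 3.27, adjusted p = 1.098e-28).

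Grin2b, a subunit that gives slow currents and is known from forebrain and development, had 4.27, 4.42 and 4.57 in cerebellum, 7.09, 7.39 and 7.61 in midbrain, 5.72, 5.92 and 6.22 in spinal cord and 3.18, 3.33 and 3.78 in liver. The 4 tissues did not overlap, and midbrain was highest. Grin2b was 8.05-fold lower in cerebellum than in midbrain (log2 -3.01 ± 0.07 SE, adjusted p = 1.503e-31), 2.92-fold lower in cerebellum than in spinal cord (log2 -1.54, adjusted p = 3.768e-22) and 2.76-fold higher in midbrain than in spinal cord (log2 1.46, adjusted p = 1.312e-20).

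Grin3a, which lowers the calcium permeability of the receptor, shared the lower level in cerebellum. Its medians were 6.06 in cerebellum, 7.91 in midbrain, 7.45 in spinal cord and 3.33 in liver, and it was 3.57-fold lower in cerebellum than in midbrain (adjusted p = 1.077e-24) and 2.70-fold lower than in spinal cord (adjusted p = 2.677e-21). Grin2a, Grin2d and the delta type subunit Grid1 had medians of 2.59 to 3.40 in the nervous tissues against 3.06 to 3.48 in liver. These probe sets did not stand above liver, which gives no measure of their genes' tissue pattern.

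The GABA-A receptor subunits made up the largest group of calls. In cerebellum 2 of 8 were higher and 4 lower than in spinal cord, and 1 was higher and 6 were lower than in midbrain, while 3 were higher in midbrain than in spinal cord. Gabrd, the delta subunit of receptors outside the synapse that carry tonic inhibition, had 9.15, 9.38 and 9.49 in cerebellum, 5.30, 6.25 and 6.84 in midbrain, 2.48, 2.84 and 3.18 in spinal cord and 2.40, 2.69 and 3.34 in liver. The nervous tissues did not overlap, and spinal cord overlapped liver. Gabrd was at least 92.8-fold higher in cerebellum than in spinal cord (log2 6.54 ± 0.10 SE, adjusted p = 2.383e-36), at least 10.6-fold higher in midbrain than in spinal cord (log2 3.41, adjusted p = 2.767e-26) and 8.75-fold higher in cerebellum than in midbrain (log2 3.13, adjusted p = 6.772e-26). The midbrain array with raised Gabra6 had 6.27 for Gabrd, inside the range of the others, and without it the difference of midbrain from spinal cord was 3.38.

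Gabrb2, a beta subunit of the most widespread GABA-A receptors, separated brain from spinal cord. It had 10.76, 10.95 and 11.20 in cerebellum, 10.70, 10.76 and 10.86 in midbrain, 8.39, 8.54 and 8.72 in spinal cord and 2.66, 2.89 and 3.40 in liver. Cerebellum and midbrain overlapped, and both lay above spinal cord. The differences were 5.28-fold for cerebellum over spinal cord (log2 2.40 ± 0.06 SE, adjusted p = 2.744e-29) and 4.70-fold for midbrain over spinal cord (log2 2.23, adjusted p = 2.238e-27).

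Gabra5, an alpha subunit known from receptors outside the synapse in hippocampus, had 2.75, 3.12 and 3.33 in cerebellum, 7.22, 7.59 and 7.94 in midbrain, 7.51, 8.11 and 8.40 in spinal cord and 2.64, 2.99 and 3.68 in liver. Cerebellum was within the range of liver, and midbrain and spinal cord overlapped far above it. Gabra5 was at least 28.8-fold lower in cerebellum than in spinal cord (measured log2 -4.91 ± 0.10 SE, adjusted p = 3.326e-33) and at least 21.6-fold lower than in midbrain (measured log2 -4.50, adjusted p = 5.744e-32).

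Gabra3, an alpha subunit of benzodiazepine sensitive receptors, had 5.19, 5.53 and 5.73 in cerebellum, 8.83, 9.03 and 9.15 in midbrain, 8.76, 8.99 and 9.16 in spinal cord and 3.79, 4.05 and 5.19 in liver. Midbrain and spinal cord overlapped, and cerebellum lay below both. Gabra3 was 11.2-fold lower in cerebellum than in spinal cord (log2 -3.48 ± 0.07 SE, adjusted p = 1.410e-32) and 11.6-fold lower than in midbrain (log2 -3.53, adjusted p = 9.272e-33).

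Gabra4, which pairs with the delta subunit in thalamus, was highest in midbrain. It had 7.12, 7.26 and 7.52 in cerebellum, 8.62, 8.98 and 9.28 in midbrain, 6.32, 6.58 and 6.71 in spinal cord and 2.95, 3.46 and 4.15 in liver, with no overlap between tissues. The level in midbrain was 5.33-fold that of spinal cord (log2 2.42 ± 0.09 SE, adjusted p = 2.126e-23), and cerebellum was 3.15-fold lower than midbrain (log2 -1.65, adjusted p = 6.544e-19). Gabrg1, Gabrg3 and Gabrb1 were also lowest in cerebellum. Gabrg1, a less common gamma subunit, had medians of 5.99 in cerebellum, 8.14 in midbrain and 7.47 in spinal cord. It was 4.59-fold lower in cerebellum than in midbrain (adjusted p = 4.036e-21) and 2.92-fold lower than in spinal cord (adjusted p = 1.836e-16). Gabrg3 had medians of 2.37, 4.58 and 3.76 in the same tissues against 2.34 in liver, so that cerebellum was at the level of liver. It was at least 4.43-fold lower in cerebellum than in midbrain (adjusted p = 3.127e-26) and at least 2.47-fold lower than in spinal cord (adjusted p = 2.411e-19). Gabrb1, the beta subunit gene beside Gabra4, had 9.34 in cerebellum, 10.50 in midbrain and 9.66 in spinal cord, and it passed only in cerebellum minus midbrain (log2 -1.19, adjusted p = 3.577e-20).

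Glycine receptors, the second inhibitory chloride channel of the list, had 2 alpha subunits with different tissue orders. Glra1, the main adult alpha subunit, which is mutated in startle disease, had 2.52, 2.80 and 3.35 in cerebellum, 4.87, 5.17 and 5.47 in midbrain, 7.84, 8.08 and 8.24 in spinal cord and 2.62, 2.95 and 3.45 in liver. Cerebellum overlapped liver, midbrain was above them and spinal cord was highest. Glra1 was at least 34.5-fold lower in cerebellum (measured log2 -5.22 ± 0.07 SE, adjusted p = 3.117e-38) and 7.35-fold lower in midbrain (log2 -2.88, adjusted p = 5.425e-29) than in spinal cord, and at least 4.69-fold lower in cerebellum than in midbrain (measured log2 -2.34, adjusted p = 8.628e-27).

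Glra2, known in rodents as the fetal alpha subunit, had 3.40, 3.98 and 4.21 in cerebellum, 7.41, 7.56 and 7.72 in midbrain, 5.63, 6.04 and 6.20 in spinal cord and 2.70, 2.95 and 3.41 in liver. Midbrain was highest and cerebellum lowest of the nervous tissues, with no overlap between them, while the lowest cerebellum array lay within the range of liver. Glra2 was at least 12.7-fold lower in cerebellum than in midbrain (log2 -3.67 ± 0.07 SE, adjusted p = 1.244e-33), at least 4.33-fold lower in cerebellum than in spinal cord (log2 -2.11, adjusted p = 8.198e-26) and 2.95-fold higher in midbrain than in spinal cord (log2 1.56, adjusted p = 9.828e-21). Glrb, the beta subunit that ties the receptor to the scaffold gephyrin, was at medians of 8.50 in cerebellum, 8.79 in midbrain and 8.85 in spinal cord against 2.35 in liver, under 2-fold apart in each pair of nervous tissues. Glra3 had medians of 2.95 to 3.06 in the nervous tissues against 3.17 in liver.

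Of the 7 nicotinic subunits, 3 had every array of a nervous tissue above every liver array, and all of them were highest in midbrain. Chrna6, known from receptors of dopamine neurons, had 2.30, 2.62 and 2.91 in cerebellum, 4.99, 5.56 and 5.74 in midbrain, 2.46, 3.00 and 3.81 in spinal cord and 2.62, 2.88 and 3.60 in liver. Midbrain stood alone, and the other tissues overlapped. It was at least 5.27-fold higher in midbrain than in spinal cord (log2 2.40 ± 0.14 SE, adjusted p = 1.837e-17) and at least 5.61-fold lower in cerebellum than in midbrain (measured log2 -2.83, adjusted p = 2.641e-20).

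Chrna3, known from autonomic ganglia and the habenula, had 3.00, 3.10 and 3.34 in cerebellum, 5.20, 5.53 and 6.01 in midbrain, 3.32, 3.69 and 4.24 in spinal cord and 2.77, 3.05 and 3.64 in liver. Midbrain stood alone here too, and spinal cord overlapped cerebellum and liver. Chrna3 was at least 3.69-fold higher in midbrain than in spinal cord (adjusted p = 3.091e-19) and at least 5.58-fold lower in cerebellum than in midbrain (adjusted p = 9.871e-24). Chrna4, part of the brain's high affinity nicotine receptor, had medians of 3.22 in cerebellum, 5.68 in midbrain, 4.66 in spinal cord and 3.56 in liver. It was at least 4.32-fold lower in cerebellum than in midbrain (adjusted p = 1.982e-25), at least 2.13-fold lower in cerebellum than in spinal cord (measured log2 -1.48, adjusted p = 2.87e-18), and 2.02-fold higher in midbrain than in spinal cord (adjusted p = 7.931e-13). The midbrain minus spinal cord difference of Chrna4 was 0.96 to 0.99, under 2-fold, without KO mouse 122970 at 6 months, WT mouse 1 at 3 months or WT mouse 2 at 6 months. It was also under 2-fold, at 0.98 (adjusted p = 3.96e-12), without the midbrain array with raised Gabra6 and at 0.91 (adjusted p = 0.00023) with only the 2 spinal cord arrays lowest in Scn11a. Its partner Chrnb2 had medians of 3.63 in cerebellum, 3.44 in midbrain, 3.13 in spinal cord and 3.02 in liver. Chrnb2, Chrna7, Chrnb3 and Chrnb4 did not stand above liver in any nervous tissue.

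Htr3a, the subunit that every serotonin-gated channel needs, was the member with the widest spread among spinal cord arrays. It had 3.14, 3.50 and 3.79 in cerebellum, 3.57, 3.97 and 4.24 in midbrain, 4.65, 5.34 and 6.30 in spinal cord and 3.20, 3.60 and 4.08 in liver. Spinal cord was above all other arrays, and the other tissues overlapped. Htr3a was at least 3.57-fold lower in cerebellum (measured log2 -1.95 ± 0.14 SE, adjusted p = 1.065e-15) and at least 2.80-fold lower in midbrain (log2 -1.48, adjusted p = 9.103e-12) than in spinal cord.

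Within spinal cord, Htr3a moved with genes of sensory ganglion neurons. A list of 8 such genes was chosen after the values were seen, 5 had a probe set (Scn10a, Scn11a, Avil, Trpv1 and Trpa1), and their mean level was 2.87 to 6.17 over the 12 spinal cord arrays (median 4.71), against 2.83 to 3.08 in cerebellum, 2.86 to 3.08 in midbrain and 3.02 to 3.44 in liver. The array of WT mouse 2 at 3 months had the highest list mean, 6.17, and the highest Htr3a, 6.30. The arrays of KO mouse 122972 and WT mouse 3 at 3 months had the lowest list means, 2.87 and 2.89, and the lowest Htr3a, 4.65 and 4.71. Across the 12 arrays the relation of each of the 35 members to the list mean was computed, with permutation p-values from 100000 draws adjusted over the 35. Htr3a had r = 0.797 (permutation p = 0.00182, adjusted 0.0192) and rho = 0.818 (adjusted 0.0195), and r was 0.665 without the 2 farthest arrays. Within genotype r was 0.809 over 6 KO arrays and 0.857 over 6 WT arrays.

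Of the other members, 3 passed in the same family of relations. Grik1, a kainate subunit known from small sensory neurons, had r = 0.876 (permutation p = 0.00011, adjusted 0.00385), rho = 0.916 (adjusted 0.0014) and r = 0.758 without the 2 farthest arrays. Chrna6, at the level of liver in spinal cord, had r = 0.832 (permutation p = 0.0007, adjusted 0.0122), rho = 0.86 (adjusted 0.00962) and r = 0.805 without those arrays. Gabrb1 ran the other way, with r = -0.792 (permutation p = 0.00219, adjusted 0.0192), rho = -0.804 (adjusted 0.0227) and r = -0.612 without those arrays. The other 31 members had an adjusted p of 0.136 or more for r. With only the 2 spinal cord arrays lowest in Scn11a, a choice made after seeing the data, Htr3a stayed lower in cerebellum (log2 -1.19, adjusted p = 5.57e-08), while its midbrain difference was -0.72 and under 2-fold (adjusted p = 0.0004107). Chrna6 was higher in midbrain by 2.92 in that fit, and Grik4 passed as lower in cerebellum. These 2 arrays were both high in skeletal muscle genes, at 6.79 and 10.32. The part of ganglion RNA in the level of Htr3a in spinal cord was not tested.

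**Figure D3:**
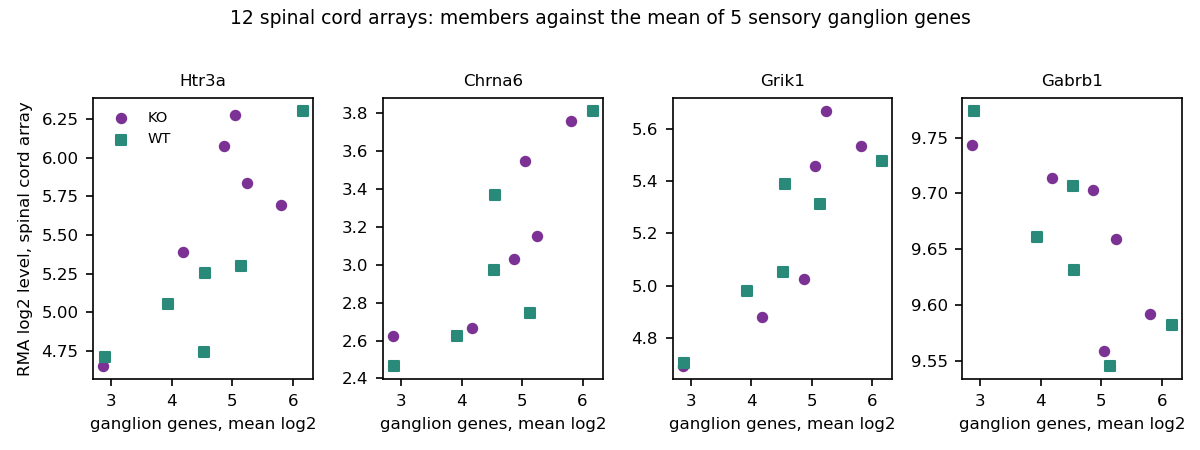
Level of Htr3a, Chrna6, Grik1 and Gabrb1 (log2 RMA intensity) on the 12 spinal cord arrays, against the mean level of 5 sensory ganglion genes on the same array, with KO as circles and WT as squares. Htr3a, Chrna6 and Grik1 are higher on arrays with more ganglion signal and Gabrb1 is lower.

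Liver served as the background of tissue without these receptors. Of the 35 members, 27 had every array of at least 1 nervous tissue above every liver array, and 18 had this in all 3 nervous tissues. All 12 arrays lay above all 12 liver arrays for 19 members in cerebellum (54.3%, against 22.9% of all probe sets), for 26 in midbrain (74.3%, against 23.3%) and for 24 in spinal cord (68.6%, against 22.3%). The probe set rule favoured probe sets bright in nervous tissue, and these shares are given as a description.

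Several members lie next to each other in the genome, and the neighbours did not always share a pattern. Gabrg3 (chr7:56716463-57387215, GRCm38.p6) and Gabra5 (chr7:57407669-57591016) were both lower in cerebellum than in spinal cord and midbrain. Chrna6 (chr8:27403212-27413944) was highest in midbrain. Its neighbour Chrnb3, the accessory subunit of the same receptors, had medians of 2.97 in midbrain, 2.68 in spinal cord and 2.75 in liver. Chrnb3 overlapped liver in every nervous tissue and was too dim to be set against Chrna6. Gria2 and Glrb are neighbours on chromosome 3 and stayed under 2-fold in every pair by the probe sets followed. Gabrb2 lies beside Gabra6 on chromosome 11, and Gabra6, which pairs with the delta subunit in granule cells, had medians of 12.11 in cerebellum, 2.93 in midbrain, 2.44 in spinal cord and 2.54 in liver.

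The effect of the knockout was then asked within each tissue and age. By limma none of the 210 KO minus WT differences of the members passed an adjusted p of 0.05, and 8 had an unadjusted p under 0.05. The 0 of 35 members stood against 0.182% of all probe sets in cerebellum at 6 months and 0.548% at 3 months, 0.142% in midbrain at 6 months and 0.242% at 3 months, and 0.162% in spinal cord at 6 months and 0.311% at 3 months. The differences ran from -0.39 to 0.62, and the 95% interval stayed within 2-fold in 209 of them and within 1.5-fold in 180. For the mean of the 6 nervous comparisons 0 of 35 members passed, against 2.34% of all probe sets, 4 had an unadjusted p under 0.05, and all 35 intervals stayed within 1.5-fold.

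The exception to the 2-fold bound was Htr3a in spinal cord at 6 months, with 5.39, 5.69 and 5.84 in KO mice against 5.25, 5.05 and 4.74 in WT mice. The 3 KO values were above the 3 WT values, and the difference of 0.62 had an adjusted p of 0.9999. The sensory ganglion list averaged 4.18, 5.81 and 5.24 in the same KO mice against 4.55, 3.93 and 4.53 in the same WT mice, and its part in this difference was not tested. At 3 months Htr3a had 6.07, 4.65 and 6.27 in KO mice against 5.30, 6.30 and 4.71 in WT mice, so that the genotypes overlapped. Over the 6 comparisons Htr3a averaged 0.24 higher in KO (adjusted p = 0.3957) and Glra1 0.16 lower, at -0.16 (adjusted p = 0.2234).

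Grin2c was the member with a call under another fit. In spinal cord it had 6.42, 6.31 and 6.21 in KO mice against 6.05, 5.90 and 6.11 in WT mice at 6 months, and 6.15, 6.31 and 6.23 in KO mice against 6.00, 5.89 and 5.97 in WT mice at 3 months. KO lay above WT at both ages, here too without a share of all probe sets so separated. In midbrain at 6 months it had 7.27, 7.05 and 6.89 in KO mice against 6.82, 6.58 and 6.67 in WT mice, also without overlap, whereas midbrain at 3 months and cerebellum overlapped. The mean difference of 0.16 had an adjusted p of 0.3986, and in a fit of the 36 nervous arrays alone it had an adjusted p of 0.008447, where 5.23% of all probe sets passed. The highest midbrain value, 7.27, was that of the array with raised Gabra6, without which the midbrain difference at 6 months was 0.28 rather than 0.38 and the mean difference 0.14 (adjusted p = 0.5344).

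**Figure D4:**
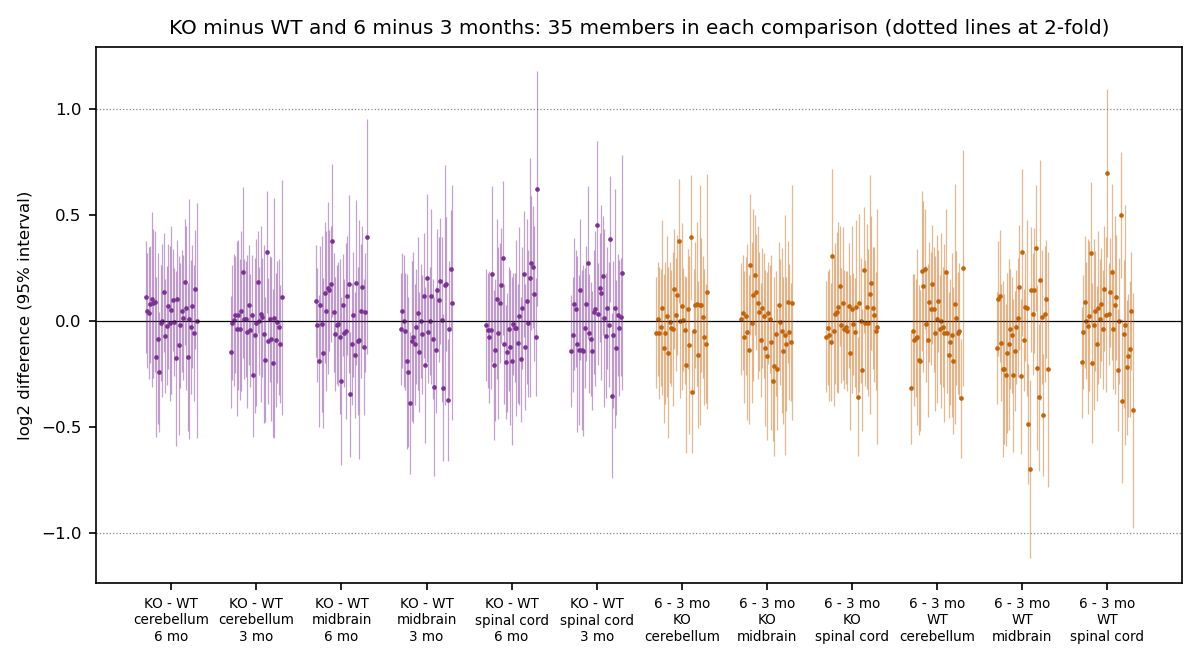
Differences of the 35 members (log2) for KO minus WT and for 6 minus 3 months in each nervous tissue, 1 point a member with its 95% interval as a line, KO minus WT in purple and age in orange. None passed the test, and the KO minus WT points lie between -0.39 and 0.62.

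Age gave the same picture at this number of mice. From limma, 0 of 105 member differences between 6 and 3 months passed in KO mice, with 5 at an unadjusted p under 0.05, and 0 of 105 passed in WT mice, with 9. The background of all probe sets was 0.0844% in cerebellum, 0.00444% in midbrain and 0.091% in spinal cord of KO mice, and 1.13%, 0.258% and 0.242% in the same tissues of WT mice. In KO mice the differences ran from -0.36 to 0.39, all with an interval within 2-fold. In WT mice they ran from -0.70 to 0.70, with an interval within 2-fold in 103.

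The largest of them belonged to inhibitory subunits. Gabra5 in WT spinal cord had 8.40, 8.16 and 8.21 at 6 months against 7.59, 7.51 and 7.58 at 3 months (0.70, adjusted p = 0.1495), while KO spinal cord had 8.15, 7.80 and 8.25 at 6 months against 7.80, 8.16 and 8.08 at 3 months. The WT ages did not overlap and the KO ages did. Glrb in WT spinal cord had 8.95, 9.11 and 8.89 at 6 months against 8.51, 8.47 and 8.45 at 3 months (0.50, adjusted p = 0.1845). Gabrd in WT midbrain had 6.13, 5.30 and 6.25 at 6 months against 6.84, 6.14 and 6.80 at 3 months, with overlap (-0.70, adjusted p = 0.2147).

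Fits of fewer arrays called some age differences. In the 36 nervous arrays alone Gabra3 in KO cerebellum (0.38) had an adjusted p of 0.03862, where 0.373% of all probe sets passed. In that fit Gabra5 in WT spinal cord had 0.03362, where 0.768% passed, and Gria1 in WT cerebellum (-0.32) had 0.01304, where 3.8% passed. With each tissue fitted alone, Gabra5 in WT spinal cord passed (adjusted p = 0.03918), where 0.218% of all probe sets did. Gabrg3 (-0.49, adjusted p = 0.03058) and Chrnb2 (-0.44, adjusted p = 0.04854) passed in WT midbrain, where 0.77% did. The change of the KO effect between the ages passed for 0 of 105 member differences by limma, with 4 at an unadjusted p under 0.05. All probe sets gave 0.0577% in cerebellum, 0.0444% in midbrain and 0.0533% in spinal cord, and the members' interval was within 2-fold in 99.

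Several of these WT values rest on the 3-month mice. The 3 WT mice at 3 months did not overlap the other 9 mice of the tissue for Gria1 in cerebellum (1 of 35 members, against 4.01% of all probe sets), for Gabra3, Chrna4 and Chrnb2 in midbrain (3 members, against 6.02%) and for Gabra5 and Glrb in spinal cord (2 members, against 3.48%). These counts are near the shares of all probe sets and are not read as a result about the members. The WT mice at 3 months also stood apart in Gabra2, an alpha subunit gene that is not a member. It lies between Gabrg1 and Gabra4 on chromosome 5. In cerebellum Gabra2 had 6.07 to 6.59 on the 9 arrays of KO mice and of WT mice at 6 months, against 7.50 to 7.72 on the 3 arrays of WT mice at 3 months. These 9 arrays had 7.03 to 7.37 in midbrain against 8.06 to 8.12 in WT mice at 3 months, and 7.02 to 7.51 in spinal cord against 8.57 to 8.70 in WT mice at 3 months. KO minus WT at 3 months was -1.06 in cerebellum (adjusted p = 0.0005669), -0.82 in midbrain (adjusted p = 0.02169) and -1.20 in spinal cord (adjusted p = 6.25e-05), and 6 minus 3 months in WT was -1.30, -0.92 and -1.55 in the same tissues (adjusted p of 1.477e-05, 0.007336 and 6.299e-07).

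The members beside Gabra2 on chromosome 5 gave no such call. For Gabrg1, Gabra4 and Gabrb1 the 18 differences of KO minus WT at 3 months and of 6 minus 3 months in WT ran from -0.26 to 0.23, with the lowest adjusted p at 0.8102. Nnt, a mitochondrial transhydrogenase named here after its values were seen, had 8.67 to 9.15 in liver of these 9 mice against 9.80 to 9.99 in the 3 WT mice at 3 months, and was likewise apart in the nervous tissues. Transcripts of Nnt and Gabra2 are known to differ between substrains of C57BL/6 mice. The labels give 1 background for all mice, and the part of the source of the mice in the members' values was not tested.

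**Figure D5:**
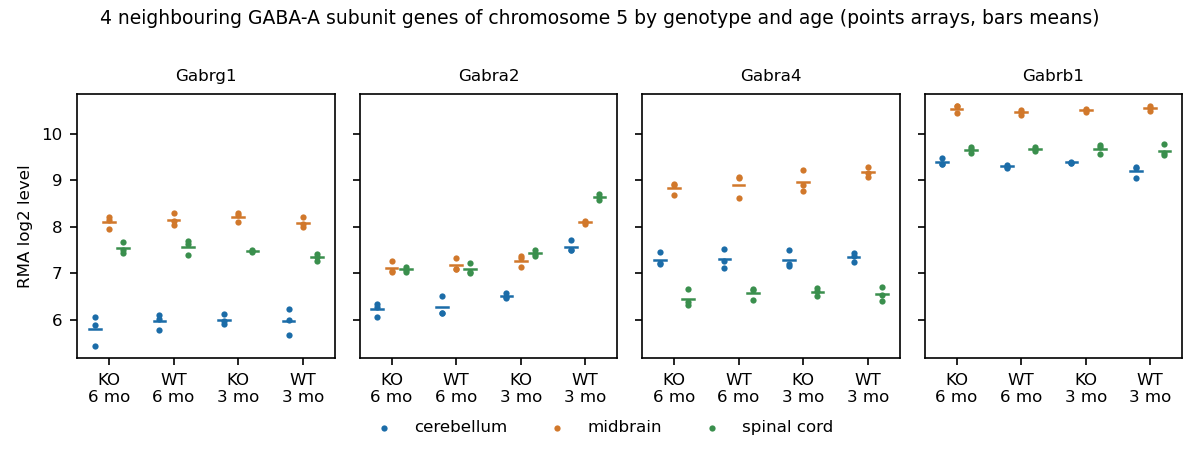
Levels (log2 RMA intensity) of Gabrg1, Gabra2, Gabra4 and Gabrb1, which lie near each other on chromosome 5, in KO and WT mice at 6 and 3 months in the nervous tissues, 3 mice a group. Gabra2 is raised in the WT mice at 3 months (8.57 to 8.70 in spinal cord), and the 3 members beside it are not set apart in those mice.

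Of 73 other genes of these receptors (further subunits, auxiliary subunits, scaffolds and synapse organizers), 61 had a probe set. Among these 61, 8 were higher and 10 lower in cerebellum than in spinal cord (against 5.74% and 6.51% of all probe sets). In midbrain 9 were higher and 4 lower than in spinal cord (against 1.29% and 1.82%). In cerebellum 5 were higher and 8 lower than in midbrain (against 4.49% and 4.9%). The counts are given as a description of the list. Gabra6 was at least 756-fold higher in cerebellum than in spinal cord (adjusted p = 1.239e-33) and at least 512-fold higher than in midbrain (adjusted p = 1.294e-32). Homer3, a postsynaptic scaffold of Purkinje cells, was at least 10.8-fold higher in cerebellum than in spinal cord and at least 12.4-fold higher than in midbrain. Cbln2 and Cbln4, secreted synapse organizers, were each at least 29.0-fold lower in cerebellum than in midbrain, and at least 13.8-fold (Cbln2) and 11.2-fold (Cbln4) lower than in spinal cord. In midbrain minus spinal cord the highest measured log2 differences were those of the AMPA receptor auxiliary subunits Cnih3 (2.87) and Shisa9 (1.75), and the lowest those of the ATP-gated channels P2rx5 (-1.76) and P2rx3 (-1.75), for both of which midbrain overlapped liver. P2rx3 is itself a gene of sensory neurons and had 2.83 to 6.70 over the spinal cord arrays. Apart from Gabra2, Homer2, another postsynaptic scaffold, passed for the knockout, in cerebellum at 3 months (0.38, adjusted p = 0.03736). It passed for 6 minus 3 months in WT cerebellum as well (0.38, adjusted p = 0.02304) and not for the knockout at 6 months, and both calls rest on the WT mice at 3 months.

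Other probe sets of the same genes gave fewer calls. The members had 29 further probe sets, of which 19 belonged to a member that passed in cerebellum minus spinal cord, and 10 of these passed in the same direction. In midbrain minus spinal cord it was 7 of 15 and in cerebellum minus midbrain 6 of 16, and 0 passed in the opposite direction by limma. Further probe sets of Gria2, Grik1 and Grik2 passed in pairs where the probe set followed did not. With the mean of all probe sets of a gene, Grik3, Grin2b, Gabrg3 and Chrna4 lost calls, and 7 members rather than 10 passed as lower in cerebellum than in spinal cord.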

How the data were processed

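RNA of cerebellum, midbrain, spinal cord and liver from 12 mice was labelled from total RNA and hybridized to 48 arrays. The authors background corrected, quantile normalized and summarized the arrays with RMA in R 2.14.0, and the deposited values are log2 intensities, 1 for each probe set and array. Scanner intensities were not analysed here. The table held 45141 rows, of which 104 controls were left out. The platform annotation gave 1 symbol to 28898 of the 45037 probe sets tested, several to 551 and none to 15588.

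A model of 16 group means was run per probe set in limma 3.58.1 (statmod 1.5.0, R 4.3.3), with a moderated spread (prior of 4.97 beside 32 residual degrees of freedom). A tissue difference had to reach 2-fold and an adjusted p under 0.05 (Benjamini-Hochberg, all probe sets tested), and a KO, age or interaction difference the adjusted p alone. Values of every tissue were given for the 4 members with the largest called difference in each tissue pair and direction, and for other members where a pattern turned on them. The members, the lists and these rules were chosen with earlier results of these data known. The members' order and coordinates came from RefSeq on GRCm38.p6.

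Precision is set by how many arrays a group has. Within groups the SD had a median of 0.133 in cerebellum, 0.115 in midbrain, 0.122 in spinal cord and 0.218 in liver (log2). The labels number the mice, and each mouse gave all 4 tissues, so tissue pairs are paired by animal. The residual correlation of the same mouse across nervous tissues was 0.0714 in the median of 36 pairs (-0.0635 to 0.194), against -0.0365 for 72 pairs of different mice in a group. The same mouse numbers recur at both ages and were taken as separate animals. The steps were tested on simulated data.

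Alternatives were fits of the 36 nervous arrays, of each tissue or of WT arrays alone, quantile normalization again, a filter on dim probe sets, other thresholds, a trended prior, the mean of all probe sets of a gene, the mouse as a replicate block and leaving out each mouse. Fits without the spinal cord arrays high in Scn11a or in skeletal muscle genes, the brain arrays high in choroid plexus genes, 1 midbrain array or the WT mice at 3 months were added after seeing the data.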

Additional observations from a re-analysis of the deposited data

Results flagged for a closer look

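The KO minus WT difference of Gabra2 was not the same at both ages in spinal cord, and the call rests on the WT mice at 3 months. KO minus WT at 6 months less KO minus WT at 3 months was 1.2 on the log2 scale (limma interaction test, adjusted p = 0.04759). The same difference in cerebellum was 1.01 (adjusted p = 0.1717). The KO mice at both ages and the WT mice at 6 months lay together, between 7.02 and 7.51 in spinal cord, and the WT mice at 3 months lay above them, between 8.57 and 8.70. Whether the WT mice of the 2 ages came from the same source was not tested.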

How the results depend on the processing

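Of 271 counts of members recomputed under an alternative, 260 stayed within 1.5 times the count reported and 11 did not. The 260 include KO and age counts that stayed at 0. With no fold minimum 17 members were lower in cerebellum than in spinal cord, 22 higher and 5 lower in midbrain than in spinal cord, and 6 higher and 21 lower in cerebellum than in midbrain. At 1.5-fold 16 were higher in midbrain than in spinal cord. The share of all probe sets that passed under these looser rules is not given here, so the counts are not read as a result about the members. With only the spinal cord arrays low in Scn11a, 1 member (Glra1) was lower in midbrain than in spinal cord. In the 36 nervous arrays alone 1 member passed for the mean KO effect (Grin2c, where 5.23% of all probe sets passed), 2 for age in WT (Gria1 in cerebellum, against 3.8%, and Gabra5 in spinal cord, against 0.768%) and 1 for age in KO (Gabra3 in cerebellum, against 0.373%). With each tissue alone 3 passed for age in WT (Gabrg3 and Chrnb2 in midbrain, against 0.77%, and Gabra5 in spinal cord, against 0.218%). These calls appeared with a spread estimated without liver, and the cause was not tested. Leaving out each mouse gave 9 to 10 members higher in midbrain than in spinal cord and left the other counts as they were.

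With the mouse as a replicate block the counts were 7 higher and 10 lower in cerebellum than in spinal cord, 10 and 2 in midbrain than in spinal cord, and 3 and 13 in cerebellum than in midbrain, and 0 for KO and age, so that the block changed no count. The filter on dim probe sets kept 25 members and lost no more than 1 call per comparison and direction. The block's consensus correlation was 0.0303. Of the single tissue differences called, 1190 recomputed values passed again, 21 fell short and 0 turned direction. These totals include the looser fold thresholds, applied to the same fit, under which every call passes by construction. The 8 members with arrays overlapping liver in every nervous tissue, Grin2a, Grin2d, Grid1, Glra3, Chrna7, Chrnb2, Chrnb3 and Chrnb4, were too dim for a tissue pattern to be read, and 3 mice a group left KO and age differences under about 1.5-fold unresolved for many members.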
